A study of Mus musculus with 8 samples.

Results

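The comparison described here is caloric restriction against ad libitum feeding in the mitochondrial fraction of mouse liver. Its members are 6 of the 8 small RNA libraries of the study, 3 labelled as ad libitum mitochondria (AL) and 3 as restricted mitochondria (CR), and they were chosen by their labels alone. All mice were male C57BL/6J, labelled as 8 weeks old, and wild type. With 12 weeks of diet it is unclear at which point that age applies. The AL group had free access to food for 12 weeks, whereas the CR group received 20% less food in the first week and 40% less in the other 11 weeks. Mitochondria were isolated by differential centrifugation and purified as mitoplasts, which are mitochondria stripped of the outer membrane, before RNA was extracted with Trizol. The other 2 libraries are whole-liver pools, 1 per diet, each made from 3 RNA samples. The labels do not say whether the 3 libraries of a diet came from separate animals, so p-values reflect only how far these libraries differ from each other, which may be technical.

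MicroRNAs (miRNAs) are short RNAs that are cut from hairpin transcripts and guide Argonaute proteins to messenger RNAs, largely through bases 2 to 8 of the miRNA, its seed. A hairpin can give a mature miRNA from each arm, named 5p and 3p. miRNAs recovered with mitochondria (sometimes called mitomiRs) have been studied as possible regulators of mitochondrial and metabolic transcripts. Liver is dominated by miR-122, a hepatocyte miRNA needed for normal lipid and cholesterol metabolism.

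The sequences on which the diet comparison turns are given first. Both miRNAs that passed the test and the other arm of their hairpins are shown, with the seed in capitals, 5′ to 3′, as RefSeq gives them for GRCm38.p6:
miR-802-5p: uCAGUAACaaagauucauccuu
miR-802-3p: aCGGAGAGucuuugucacucag
miR-199a-3p: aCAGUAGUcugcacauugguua
miR-199a-5p: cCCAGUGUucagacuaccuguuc
The seeds of miR-802-5p and miR-199a-3p carry the same base at 5 of 7 positions but are not the same seed, and no other tested miRNA name carries either of them. Mir802 lies at chr16:93369720-93369816 (plus strand), outside any annotated gene of its strand. miR-199a-3p comes from 2 hairpins, Mir199a-2 at chr1:162217814-162217923 in an exon of the non-coding RNA Dnm3os, which runs opposite to Dnm3, and Mir199a-1 at chr9:21496495-21496564 on the strand opposite to Dnm2. RefSeq also gives miR-199b-3p, at chr2:32318524-32318545, the same letters as miR-199a-3p. The tables used here list no miR-199b-3p, so its reads and those of miR-199a-3p cannot be told apart.

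The next 4 in order of p that are not yet shown were these:
miR-146a-5p: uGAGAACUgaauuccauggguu
miR-31-3p: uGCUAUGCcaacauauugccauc
miR-6240: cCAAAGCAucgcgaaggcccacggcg
let-7d-3p: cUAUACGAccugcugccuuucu
The other sets are shown because their members share a seed and can be compared within a family, let-7 first and the miR-148 and miR-152 family after it:
let-7b-5p: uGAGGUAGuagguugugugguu
let-7c-5p: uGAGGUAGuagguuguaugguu
let-7i-5p: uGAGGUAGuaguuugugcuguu
miR-148a-3p: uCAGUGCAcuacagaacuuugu
miR-148b-3p: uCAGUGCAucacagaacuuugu
miR-152-3p: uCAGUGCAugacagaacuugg

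The AL libraries held 1083328, 1095018 and 1422418 miRNA reads and the CR libraries 1200984, 1577691 and 1070762 reads. Levels are given in RPM, the reads of a miRNA scaled to a library total of 1000000 miRNA reads, and 1 read was worth between 0.634 and 0.934 RPM. Of 862 miRNA names in the 8 tables, 734 had a read in a mitochondrial library and 328 had reads in all 6. The labelled tissue was checked against its defining miRNA: miR-122, both arms together, took 37.96%, 45.3% and 41.6% of the AL reads and 53.3%, 25.2% and 58.1% of the CR reads. The tables list miRNAs, so the mitochondrial fraction could not be checked against mitochondrial transcripts here.

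CR replicate 2 stood apart from the other libraries in a number of abundant miRNAs and in the pancreatic miR-375-3p and miR-217-5p. Its share of miR-122-5p, 25.2%, was the lowest of the 6. Its shares of miR-148a-3p (17.6%), miR-30a-5p (7.55%), miR-101b-3p (7.47%), miR-192-5p (6.19%) and miR-101a-3p (3.35%) were each the highest. It also held most of the reads of miR-375-3p and miR-217-5p. The islet miRNA miR-375-3p was at 63.4 RPM there and at 0.913 to 3.74 RPM in the other 5 libraries. The acinar miRNA miR-217-5p was at 33.0 RPM there and at most at 1.83 RPM elsewhere. Other pancreatic names did not follow. The rare miR-216a-5p and miR-216b-5p were at 1.27 RPM there, below AL replicate 2 (1.83 RPM) and AL replicate 1 (1.85 RPM) respectively. miR-7a-5p, abundant in islets, was lowest in CR replicate 2. The endothelial miR-126a-3p was at 15420 RPM in CR replicate 2 and at 5549 to 8184 RPM elsewhere. Over all tested miRNAs, in log2(RPM + 1), CR replicate 2 correlated with the other mitochondrial libraries at 0.955 to 0.969. AL replicate 1 did so at 0.952 to 0.971, so CR replicate 2 was not set apart over all tested names. Values without CR replicate 2 are given beside the results that it moved most.

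**Figure D1:**
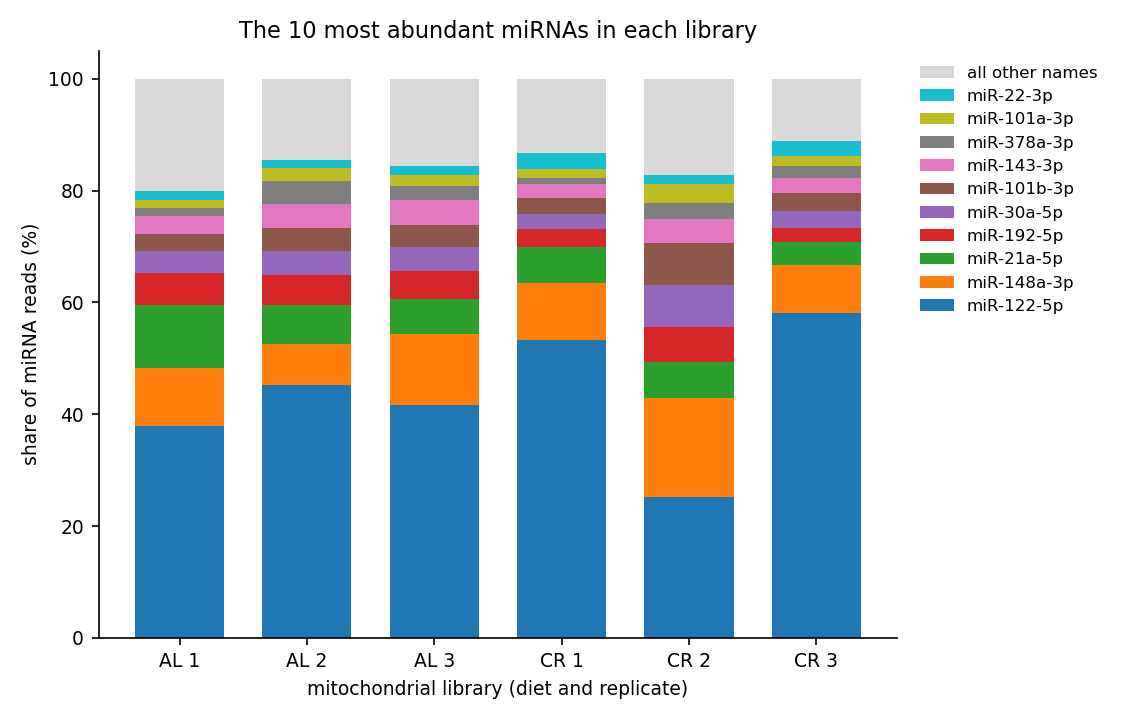
Share of all miRNA reads (%, vertical axis) taken by each of the 10 most abundant miRNAs in the 6 mitochondrial libraries (horizontal axis, diet and replicate). miR-122-5p forms 25.2% of CR replicate 2 and 37.9% to 58.1% of the other 5 libraries, and miR-148a-3p, miR-30a-5p and miR-101b-3p are widest in CR replicate 2.

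Under restriction the mitochondrial fraction held more miR-802-5p and less miR-199a-3p, and no other miRNA passed the test. These were 2 of 391 miRNAs tested (0.512%), 1 in each direction (0.256% each), by limma-trend on log2(RPM + 1) with Benjamini-Hochberg adjustment at 0.05. miR-802, a liver and islet miRNA known to be raised in obesity, was among the hepatocyte and metabolic miRNAs. miR-199a, from the Dnm3os transcript, is known from fibroblasts and hepatic stellate cells, the cells that lay down matrix in the liver.

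miR-802-5p was at 123.7, 35.6 and 19.0 RPM in the AL libraries and at 418.8, 441.2 and 237.2 RPM in the CR libraries, from 134, 39, 27, 503, 696 and 254 reads. The groups did not overlap, and the AL libraries varied more among themselves, with a coefficient of variation of 94.7% against 30.6% under CR. The mean level was 59.4 ± 56.3 RPM under AL and 365.7 ± 112 RPM under CR (SD, n = 3 each). The log2 fold change was 2.97 (SE 0.51, 95% interval 1.89 to 4.05), a 7.86-fold higher level, with limma adjusted p = 0.00768. The highest AL library, replicate 1, held 123.7 RPM, and without it the log2 fold change was 3.71.

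The other arm, miR-802-3p, went the same way without passing the test. Its levels were 21.2, 8.22 and 2.11 RPM under AL and 48.3, 26.0 and 52.3 RPM under CR, again without overlap, and the log2 fold change was 2.27 (SE 0.58, limma adjusted p = 0.0736). The order of the AL libraries was the same for both arms, with replicate 1 highest and replicate 3 lowest. The balance of the arms, the log2 ratio of 5p to 3p, averaged 2.39 under AL and 3.09 under CR, a difference of 0.71 whose 95% interval ran from -0.46 to 1.87.

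miR-199a-3p was at 2234, 1532 and 1900 RPM in the AL libraries and at 689, 574 and 544 RPM in the CR libraries. Every CR library lay below every AL library, with means of 1889 ± 351 RPM and 602 ± 77.0 RPM (SD, n = 3 each). The log2 fold change was -1.64 (SE 0.32, 95% interval -2.31 to -0.97), a 3.11-fold lower level, with limma adjusted p = 0.0141. The other arm, miR-199a-5p, was at 335, 345 and 346 RPM under AL and 139, 185 and 113 RPM under CR, a change of -1.25 that did not pass (limma adjusted p = 0.0736).

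Both calls depended on which library was left out. Without AL replicate 2, AL replicate 3, CR replicate 1 or CR replicate 2, limma on the deposited scale made 0 calls, with 47, 37, 52 and 58 miRNAs at an unadjusted p under 0.05, and without CR replicate 3 it made 1, miR-802-5p. Over all 6 omissions the change of miR-802-5p stayed between 2.39 (without AL replicate 3) and 3.71 on the log2 scale, and that of miR-199a-3p between -1.78 (without AL replicate 2) and -1.51. Without AL replicate 1 there were 6 calls, the additional ones being miR-146a-5p (-1.59), miR-31-3p (1.86), miR-802-3p (2.95) and miR-6481 (-2.61). Without CR replicate 2 the values were 2.81 and -1.61, each with limma adjusted p = 0.0610. With DESeq2 size factors or with edgeR on the recovered reads, both were called without that library. With robust moderation of the variances in limma miR-199a-3p remained past the threshold (limma adjusted p = 0.00781) and miR-802-5p did not (limma adjusted p = 0.0597).

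**Figure D2:**
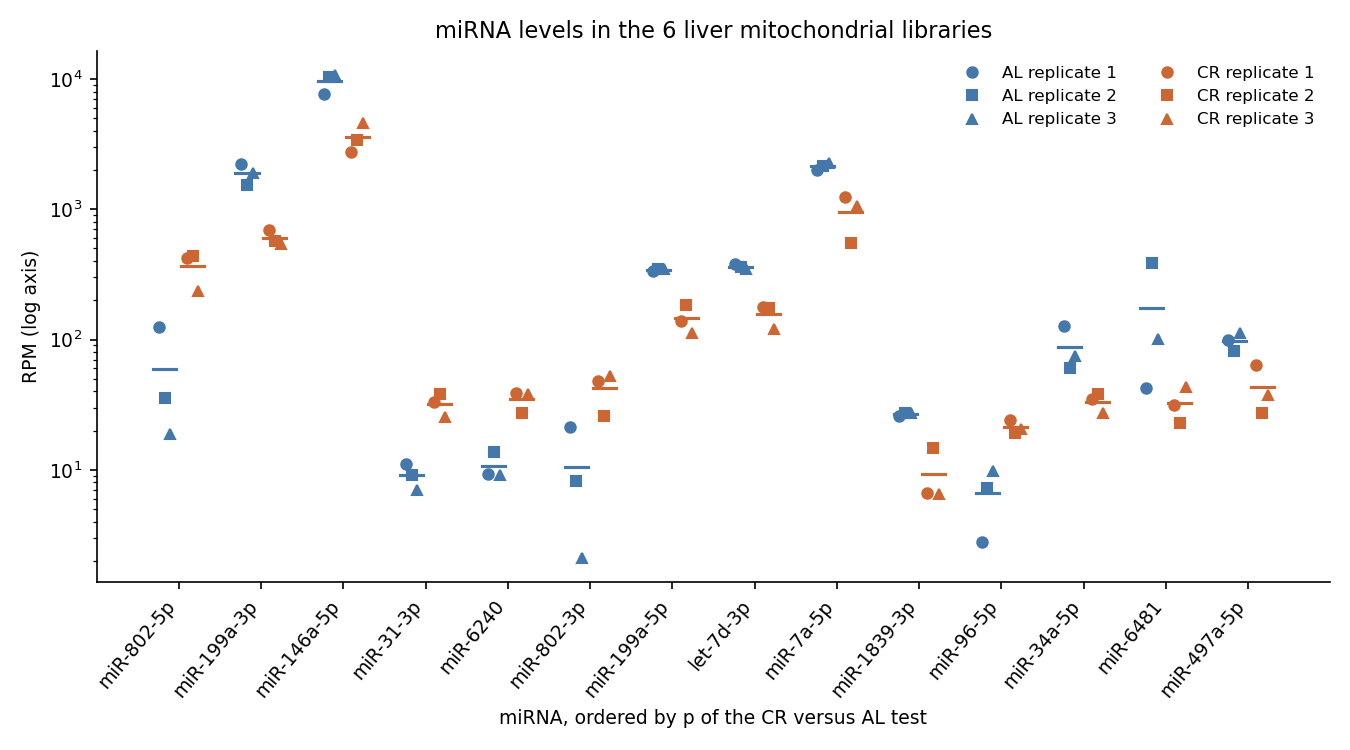
Level in RPM (log axis) of the 14 annotated miRNAs with the smallest p, 1 symbol per mitochondrial library (blue AL, orange CR, shape for the replicate) and a bar for each mean. The AL and CR symbols do not overlap for 13 of the 14; for miR-6481, AL replicate 1 (42.5 RPM) lies below CR replicate 3 (43.0 RPM).

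Across all tested miRNAs the deposited values were shifted towards lower levels under CR. The median log2 fold change was -0.17, with 147 values above 0 and 244 below, and changes of single miRNAs are to be read against that shift. At an unadjusted p under 0.05 there were 52 miRNAs (13.3%), 15 higher (3.84%) and 37 lower (9.46%). The 3 AL and 3 CR libraries did not overlap for 76 miRNAs (19.4%), with CR above for 20 (5.12%) and below for 56 (14.3%). The split depended on the scale. With DESeq2 size factors the median was 0.03, the unadjusted counts were 28 higher and 20 lower, and the libraries did not overlap for 31 above and 34 below. The calls themselves were then 4 higher and 1 lower, the additional ones being miR-31-3p, miR-6240 and miR-802-3p.

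**Figure D3:**
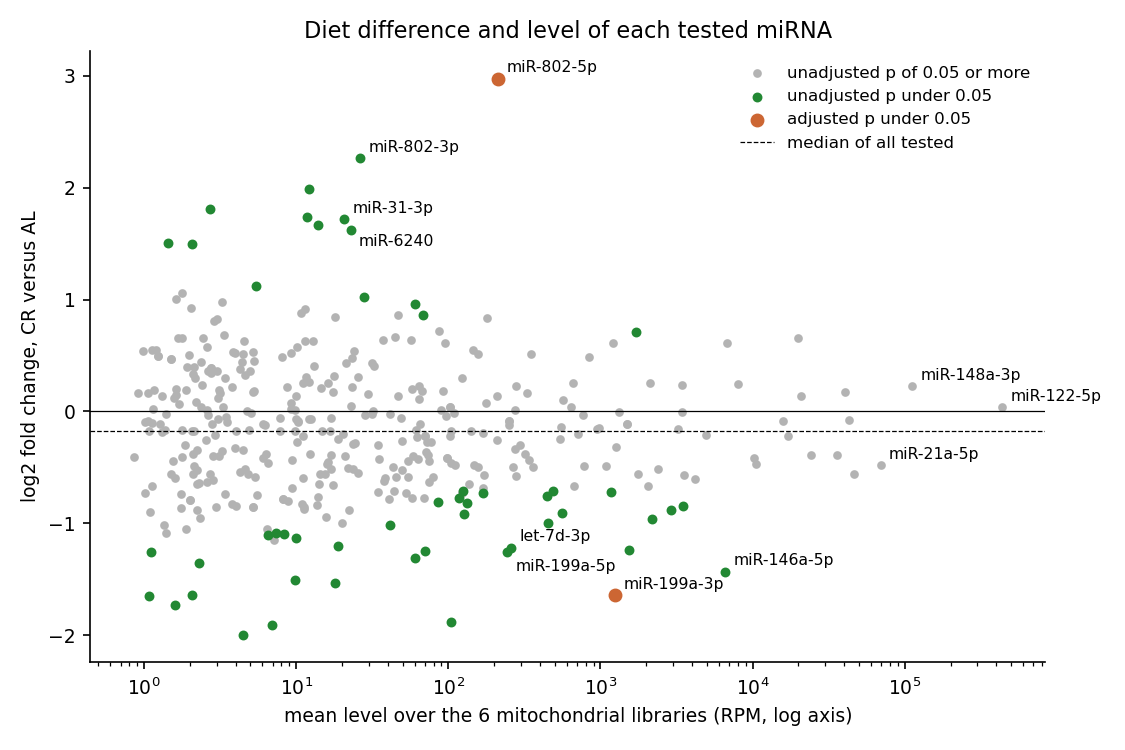
Log2 fold change of CR against AL (vertical axis) and mean level in RPM (horizontal, log axis) of the 391 tested miRNAs in mitochondria. The 2 orange points passed the adjusted test (miR-802-5p at 2.97, miR-199a-3p at -1.64), green points have an unadjusted p under 0.05, and the dashed line is the median of -0.17.

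Of the 30 miRNAs with the smallest p, 28 did not pass the test, and their values are given as levels. Among those with higher levels under CR, miR-31-3p, from an epithelial miRNA gene at chr4:88910557-88910662, was at 11.1, 9.13 and 7.03 RPM under AL and 33.3, 38.03 and 25.2 RPM under CR. The change was 1.72 on the log2 scale (limma adjusted p = 0.0730), the groups did not overlap, and 16 of 31 alternative analyses called it. Its more abundant other arm, miR-31-5p, was at 108.9, 35.6 and 62.6 RPM against 122.4, 91.9 and 98.1 RPM, with overlap and a log2 fold change of 0.72.

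miR-6240, from chr5:114851948-114852064, was at 9.23, 13.7 and 9.14 RPM under AL and 39.1, 27.3 and 38.3 RPM under CR (log2 fold change 1.62, limma adjusted p = 0.0736). It was called in 10 of the 31 alternatives. miR-96-5p, one of a cluster of 3 hairpins best known from sensory organs, was at 2.77, 7.31 and 9.84 RPM against 24.2, 19.0 and 20.6 RPM (log2 fold change 1.67). All 3 of these miRNAs had every CR library above every AL library.

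Among the miRNAs with lower levels under CR, miR-146a-5p was the most abundant of the 30. It is induced by NF-kappaB and represses Irak1 and Traf6 in a feedback loop of innate immune signalling, and its hairpin lies at chr11:43374397-43374461. The levels were 7609, 10435.4 and 10739.5 RPM under AL and 2763, 3411 and 4626 RPM under CR, with no overlap. The log2 fold change was -1.43 (SE 0.35, 95% interval -2.16 to -0.70), and the test missed the threshold (limma adjusted p = 0.0730). The alternatives called it in 7 of 31. Its other arm, miR-146a-3p, was near the level of single reads (at most 4.57 RPM).

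let-7d-3p was at 380, 361 and 346 RPM under AL and 178, 176 and 120 RPM under CR, a log2 fold change of -1.22 (limma adjusted p = 0.0772). The other arm of this hairpin, let-7d-5p, overlapped between the diets and had a log2 fold change of -0.67. miR-7a-5p, an abundant islet miRNA with 1 hairpin in an intron of Hnrnpk, was at 1985, 2155 and 2271 RPM against 1250, 555 and 1061 RPM (-1.24). miR-34a-5p, a p53 target gene product known to repress Sirt1, was at 127.4, 60.3 and 74.5 RPM against 35.0, 38.03 and 27.1 RPM (-1.30). Each of these had all CR libraries below all AL libraries, and no alternative called miR-34a-5p.

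The 3 AL libraries were close together for several of these miRNAs. miR-1839-3p was at 25.8, 27.4 and 27.4 RPM under AL and 6.66, 14.6 and 6.54 RPM under CR (log2 fold change -1.53), and miR-185-5p at 647, 599 and 560 RPM against 355, 227.5 and 339 RPM (-0.99). miR-497a-5p was at 99.7, 82.2 and 111.8 RPM against 64.1, 27.3 and 37.4 RPM (-1.25). miR-6481 was the exception, at 42.5, 383.6 and 101.2 RPM under AL and 31.6, 22.8 and 43.0 RPM under CR (-1.88). Its AL libraries spanned a wide range and overlapped with CR. Without AL replicate 1 limma called it (-2.61).

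The rest of the 30 were mostly rare. Under 20 RPM in every library were novel_315 (log2 fold change -1.90), let-7c-1-3p (-1.73), miR-20a-3p (-1.64), miR-6516-3p (-1.99), miR-484 (-1.51), novel_226 (1.80), miR-1191a (1.51) and miR-200a-5p (above 0), and novel_331, which was read under AL only. Names such as novel_315 are the authors' unannotated candidates. novel_353 was at 6.46, 1.83 and 6.33 RPM under AL and 26.6, 8.24 and 21.5 RPM under CR (1.74), and miR-592-5p at 40.6, 13.7 and 26.7 RPM against 9.99, 13.9 and 7.47 RPM (-1.20). For miR-6516-3p, miR-484 and miR-592-5p the libraries of the diets overlapped.

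**Figure D4:**
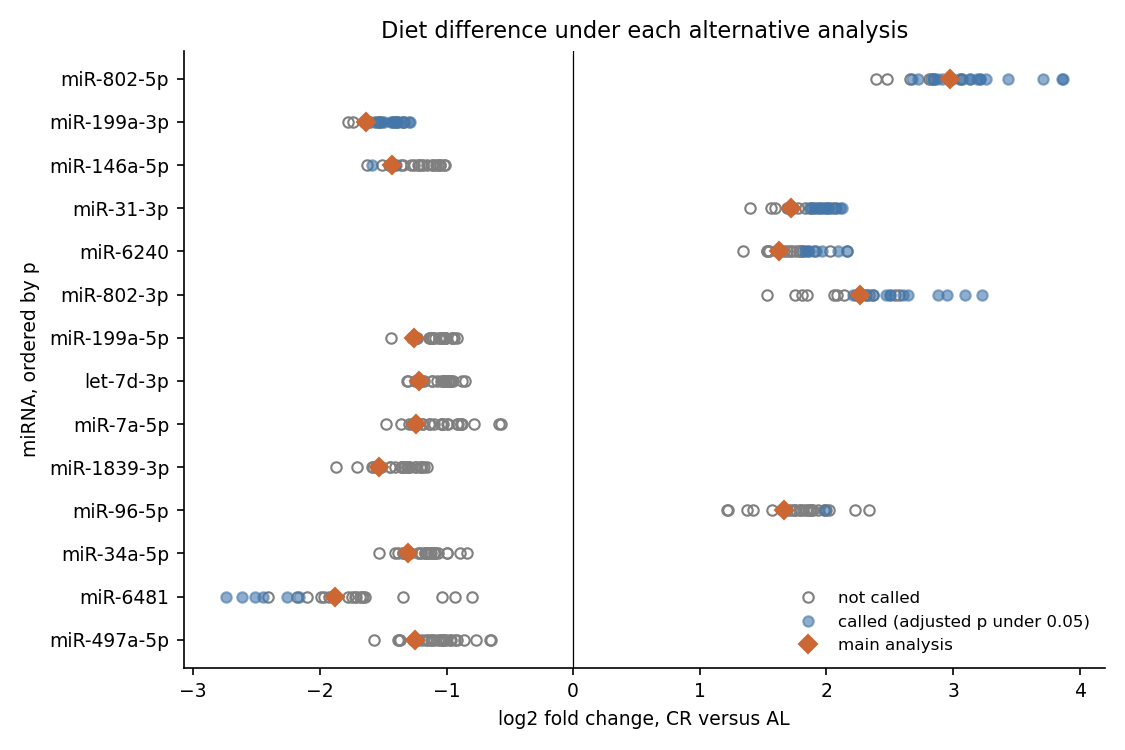
Log2 fold change of CR against AL (horizontal axis) of the 14 annotated miRNAs with the smallest p (vertical axis), 1 circle for each of 31 alternative analyses, filled where the alternative called the miRNA, and a diamond for the main analysis. Every symbol of a given miRNA lies on the same side of 0, and filled circles are most frequent for miR-802-5p (23) and miR-199a-3p (20).

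None of the 10 most abundant miRNAs passed the test. miR-22-3p, processed from the non-coding transcript Mir22hg on chromosome 11, was the one whose diets did not overlap, at 15733.9, 14338 and 15139 RPM under AL and 28517, 16489 and 28482.5 RPM under CR. That is a log2 fold change of 0.66 (95% interval -0.12 to 1.44), with CR replicate 2 close to the AL libraries. Without that library it was 0.92 on the deposited scale (limma adjusted p = 0.0784), and both DESeq2 size factors and edgeR then called it.

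The other 9 overlapped. miR-122-5p itself had means of 415777 ± 36831 RPM under AL and 454962 ± 177644 RPM under CR (SD, n = 3 each), a log2 fold change of 0.04 with a 95% interval from -1.02 to 1.10. The value was 0.42 without CR replicate 2 and -0.18 without CR replicate 3, so no direction can be given for the most abundant miRNA. miR-148a-3p, a hepatocyte miRNA that represses DNA methyltransferase and lipoprotein receptor transcripts, had a log2 fold change of 0.23. miR-101b-3p had 0.18, miR-101a-3p 0.14 and miR-30a-5p -0.08. The sign of each of these changed when CR replicate 2 or another library was left out. miR-21a-5p, widely raised in injury and inflammation, had a log2 fold change of -0.48, and AL replicate 1 stood highest at 112736 RPM. miR-192-5p had -0.56, miR-143-3p -0.39 and miR-378a-3p, from an intron of Ppargc1b, -0.39.

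Abundant miRNAs whose diets did not overlap included further members below the top 10. miR-30b-5p was at 1475, 1037 and 1401 RPM under AL and 1980, 2228 and 2130 RPM under CR (log2 fold change 0.71, limma adjusted p = 0.329). miR-191-5p was at 1398, 1555 and 1444 RPM against 845, 1052 and 785 RPM (-0.72). The AL libraries of miR-191-5p and the CR libraries of miR-30b-5p lay within a narrow range of each other.

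The precision of the test set what could be seen. The median 95% interval spanned a factor of 1.66 on either side for miRNAs of 1000 to 10000 RPM and 1.67 for those of 100 to 1000 RPM. Above 10000 RPM the factor was 1.85 (14 miRNAs), although counting error is smallest there. The median coefficient of variation in that class was 20.3% in the AL and 39.5% in the CR libraries. Below 10 RPM, where 166 miRNAs lay, the factor was 2.39, and no miRNA under 100 RPM passed.

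Within the let-7 family, whose members repress growth and insulin signalling transcripts and share the seed printed above, all 9 tested 5p names had a log2 fold change below 0. Their median was -0.51, against -0.17 for all 391 tested miRNAs, of which 244 lay below 0. The 9 values lay between -0.96 (let-7b-5p) and -0.22 (let-7f-5p), and none passed the test. For 3 of them the diets did not overlap, with CR below, as for 14.3% of all tested miRNAs. let-7b-5p was at 3370, 2548 and 2664 RPM under AL and 1818, 1166 and 1454 RPM under CR. let-7c-5p was at 4596, 3098 and 3718 RPM against 2261, 1966 and 1893 RPM, and let-7i-5p at 4902, 3484 and 5145 RPM against 2510, 2702 and 2237 RPM. These 3 are the members with every CR library below every AL library.

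The most abundant members behaved differently from let-7b-5p, let-7c-5p and let-7i-5p in their spread. let-7f-5p was at 28562, 9823 and 18143 RPM under AL and 18546.5, 18871 and 9221 RPM under CR, and let-7g-5p at 18547, 6451 and 10931 RPM against 9944, 9283 and 5934 RPM. AL replicate 1 was the highest library for both. The family's summed level, 65855, 27926.5 and 43905.5 RPM under AL and 38196, 36582 and 22723 RPM under CR, therefore overlapped. Without AL replicate 1 the family median was -0.24 and that of all miRNAs -0.14, a gap of -0.10 in place of -0.34, and 6 of 9 members lay below the median of all. Without CR replicate 2 the family median was -0.66 and that of all miRNAs -0.33. With DESeq2 size factors the family median was -0.27, with 8 of 9 members below 0. Names in this family differ by few letters, and how reads that match several were divided is not given in the sources used here.

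The family of miR-148 and miR-152, whose members share a seed, was split. miR-148a-3p had a log2 fold change of 0.23, miR-152-3p -0.67 and miR-148b-3p -0.91. miR-152-3p, from an intron of Copz2, was at 2522, 2989 and 2050 RPM under AL and 1961, 1593 and 1235 RPM under CR. miR-148b-3p, from an intron of Copz1, was at 959, 541.5 and 657 RPM against 511, 421 and 240.0 RPM. Both of these had CR below AL without overlap on the deposited scale, but their diets overlapped with DESeq2 size factors. In contrast, miR-148a-3p was highest in CR replicate 2, at 176362 RPM. Without that library all 3 members lay below 0, with miR-148a-3p at -0.079, miR-152-3p at -0.68 and miR-148b-3p at -0.99. The differences between members were not tested.

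The 391 tested miRNAs carried 325 distinct seeds, and 13 seeds were shared by 3 or more of them. In 7 of the 13 families the median lay below that of all miRNAs. Only let-7 5p and the miR-125 family (median -0.64, 3 members) had every member below 0, and only the family of miR-200b-3p, miR-200c-3p and miR-429-3p had every member above 0 (median 0.26). Of 31 alternatives, 22 kept all let-7 5p members below 0 and 16 all miR-125 members. Under alternatives the miR-200b median ran from -0.18 (without CR replicate 2, with 2 of 3 members below 0) to 1.23. In the miR-30 5p family the 5 members ran from -0.15 to 0.71, with miR-30b-5p at the upper end.

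**Figure D5:**
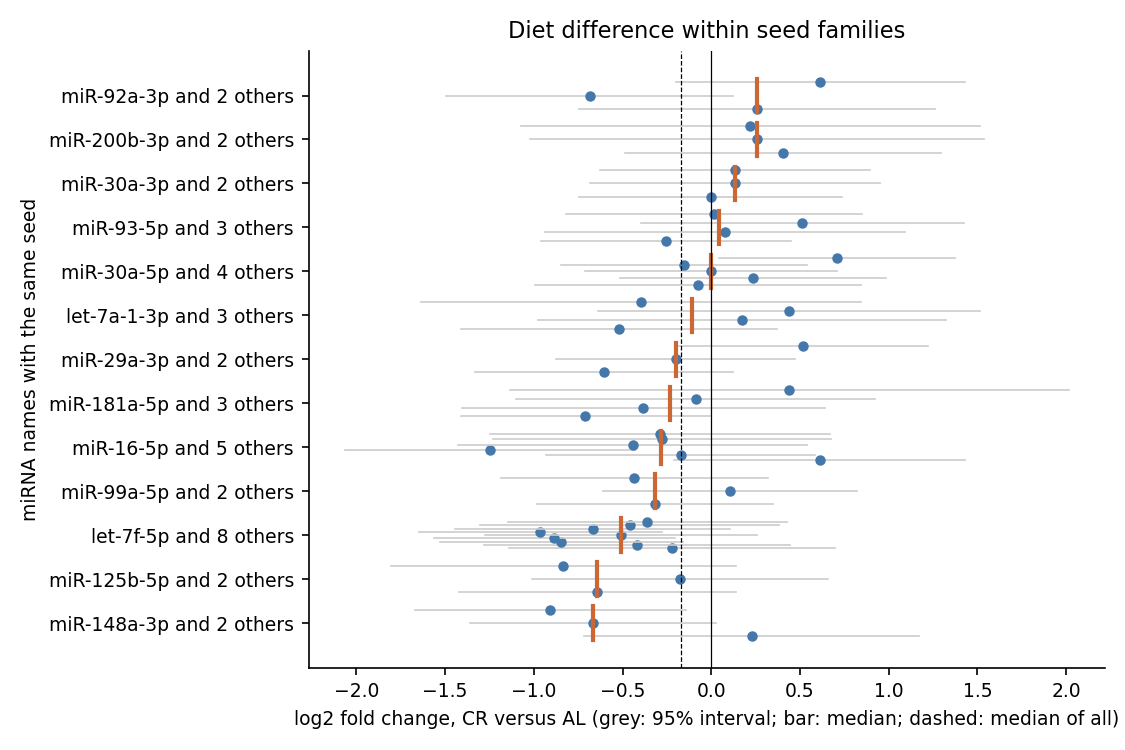
Log2 fold change of CR against AL (horizontal axis) of the members of the 13 seed families with 3 or more tested miRNAs (vertical axis), with 95% intervals in grey, the family median as an orange bar and the median of all miRNAs as a dashed line. All 9 let-7 5p members lie left of 0, with a median of -0.51.

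The balance between the arms of a hairpin is a ratio within a library. The 1 RPM added to each arm leaves some dependence on scale where an arm is rare. Both arms were measured for 102 hairpins, of which 63 had more 5p and 39 more 3p reads, and 81 kept the same major arm in all 6 libraries. limma called 0 of the 102 (0%), with 9 (8.82%) at an unadjusted p under 0.05 and 13 (12.7%) without overlap. The median 95% interval reached 1.20 on either side on the log2 scale, so shifts of that size could be missed. The larger difference of miR-6516, 2.19, did not pass either. In 56 of the 102 hairpins both arms went the same way.

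The smallest p belonged to miR-30b, whose log2 ratio of 5p to 3p was 5.73, 5.39 and 5.66 under AL and 6.62, 6.75 and 7.06 under CR. The difference was 1.22 (95% interval 0.28 to 2.15, limma adjusted p = 0.472). miR-106b (1.39), miR-20a (1.71), miR-221 (1.42) and miR-6516 (2.19) followed, each with limma adjusted p = 0.472. For miR-21a the ratio was 13.4 log2 units under AL and 12.0 under CR, a difference of -1.40 (-1.42 with 0.5 RPM added and -1.21 with 5 RPM). Without CR replicate 2 its difference of -2.34 was called (limma adjusted p = 0.0141). The rare arm, miR-21a-3p, was at 6.46, 8.22 and 4.22 RPM under AL and 25.8, 3.17 and 20.6 RPM under CR, so CR replicate 2 was the lowest of the 6 and the other CR libraries were the highest.

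Markers of the liver's cell types were compared as lists, each described beside the medians of all tested miRNAs. The libraries hold RNA of a mitochondrial fraction that could not be checked here, not of whole tissue. In such RNA, fewer cells of a type, less RNA per cell and a different recovery with mitochondria cannot be told apart. Of 22 tested hepatocyte names 1 rose (miR-802-5p) and 0 fell, against 0.256% of all tested miRNAs in either direction. The median was 0.01, or 0.18 above that of all tested miRNAs, and 11 values lay above 0 and 11 below.

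Of 11 tested stellate cell and fibroblast names 1 fell (miR-199a-3p) and 0 rose, against 0.256% of all tested miRNAs in either direction. The median was -0.58, which is -0.41 relative to all, and 10 of 11 lay below 0, as did 244 of all 391 tested. On the deposited scale the libraries of 6 of them did not overlap, all with CR below, as 14.3% of all tested miRNAs did. With DESeq2 size factors some of the 6, miR-145a-3p and miR-152-3p among them, overlapped, and miR-199a-3p did not. Among all tested miRNAs the number without overlap and with CR below then fell from 56 to 34. miR-214-3p, from the same host transcript as Mir199a-2, was at 42.5, 64.8 and 49.2 RPM under AL and 28.3, 33.6 and 27.1 RPM under CR. miR-199b-5p was at 28.6, 12.8 and 13.4 RPM against 14.2, 19.6 and 12.1 RPM, which overlapped. The summed level of the list, most of it miR-143-3p, ran from 38158 to 49521 RPM under AL and from 27636.5 to 46280 RPM under CR. The part of this list in the fall of miR-199a-3p was not tested.

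Of 10 tested leukocyte and Kupffer cell names none passed the test (limma, 3 at an unadjusted p under 0.05, against 13.3% of all tested). The median was -0.53, which is -0.35 relative to all. The summed level was 8355 to 11483 RPM under AL and 3147 to 5185 RPM under CR, but most of it was miR-146a-5p. Without that name the sums were 746, 667 and 744 RPM under AL and 384, 627 and 559 RPM under CR, all CR libraries again below the AL libraries on the deposited scale. With DESeq2 size factors these sums overlapped, at 626, 629 and 728 under AL and 423, 594 and 690 under CR, and they also overlapped with TMM factors and with miR-122 left out of the totals. miR-142a-5p, a pan-leukocyte miRNA, was at 262.2, 112.3 and 137.1 RPM against 103.2, 76.1 and 74.7 RPM (log2 fold change -0.92). miR-150-5p, a lymphocyte miRNA, went the other way, at 18.5, 17.4 and 12.7 RPM against 20.0, 73.5 and 25.2 RPM (1.02, and 0.47 without CR replicate 2), without overlap and with CR replicate 2 highest. The myeloid miR-223-3p was at 16.6, 20.1 and 14.1 RPM against 10.8, 16.5 and 7.47 RPM. The part of leukocyte RNA in the levels of miR-146a-5p was not tested.

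All 8 tested names of bile duct and other epithelium had a log2 fold change above 0, as did 147 of all 391 tested. The median of the 8 was 0.39 (0.56 relative to all), and none passed the test (limma, 2 at an unadjusted p under 0.05, against 13.3% of all tested). Without CR replicate 2 the median was 0.05 (0.38 relative to all) and 3 of the 8 lay below 0, miR-200c-3p at -0.60, miR-141-3p at -0.30 and miR-429-3p at -0.18. The summed level was 548, 300 and 312 RPM under AL and 474, 640 and 415 RPM under CR, with overlap. miR-200a-3p made up most of it and had a log2 fold change of 0.23. The endothelial median was -0.11 (7 tested, of which miR-126a-5p and miR-126b-3p had identical reads), the erythroid median -0.39 (5) and the neuronal median -0.29 (6), with no call in any of these lists. The muscle miRNA miR-1a-3p ranged from 15.7 to 147 RPM under AL and from 15.8 to 119 RPM under CR, so its spread within a diet was as wide as between them. miR-375-3p was the tested pancreatic name, and its log2 fold change of 1.98 fell to 0.59 without CR replicate 2.

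Of 25 tested names that earlier work reported in mitochondria, among them miR-181c, which has been described to act on a mitochondrially encoded subunit of cytochrome c oxidase, 0 passed (limma, 3 at an unadjusted p under 0.05, all lower, against 9.46% of all tested). Their median was -0.22, against -0.17 for all, with 8 above 0 and 17 below. Those 3 were miR-146a-5p, miR-34a-5p and miR-142a-5p.

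Of 34 tested miRNAs of lipid and glucose metabolism 1 rose (miR-802-5p) and 0 fell, against 0.256% of all tested miRNAs in either direction, and the median was -0.09, against -0.17 for all. Of 24 ageing and senescence names 0 passed (limma, 5 at an unadjusted p under 0.05, all lower, against 9.46% of all tested), with a median of -0.23. Those 5 were miR-146a-5p, miR-34a-5p, miR-20a-3p, miR-17-3p and miR-181a-5p. miR-181a-5p was at 178.2, 130.6 and 161.0 RPM under AL and 90.8, 103.9 and 89.7 RPM under CR (log2 fold change -0.71).

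The remaining families and lists had 0 calls by limma. The cluster of miR-183, miR-96 and miR-182 had the highest median, 0.86 (1.03 relative to all). All 3 tested members lay above 0, as did 147 of all 391 tested. miR-183-5p was at 35.1, 39.3 and 75.2 RPM under AL and 71.6, 103.9 and 85.9 RPM under CR (0.86), and miR-182-5p at 64.6, 163.5 and 168.7 RPM against 161.5, 337.8 and 187.7 RPM (0.83). Both overlapped between the diets, unlike miR-96-5p. The medians of the others were -0.42 for all 19 let-7 names of either arm, -0.43 for 13 names related to miR-10, to miR-99 or to miR-100, -0.36 for 6 miR-181 names, and -0.49 for 13 NF-kappaB and inflammation names. They were 0.19 for 7 miR-29 names, 0.11 for 11 hypoxia and oxidative stress names, 0.01 for 13 names of the miR-17-92 clusters, 0.00 for 11 miR-30 names and -0.06 for 16 names of the imprinted Dlk1-Dio3 region. Within the miR-17-92 list, miR-18a-5p was at 2.77, 3.65 and 2.81 RPM under AL and 6.66, 9.51 and 7.47 RPM under CR (1.12), whereas miR-17-3p was at 18.5, 10.05 and 13.4 RPM against 7.49, 6.34 and 3.74 RPM (-1.13).

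A few names had reads in all 3 libraries of 1 diet and in none of the other. There were 7, 5 read under AL and 2 under CR, and each rested on 3 to 8 reads. novel_331 had 2, 2 and 4 reads under AL, and the next, miR-3064-5p, had 2, 1 and 1. Over 3 libraries a count of 0 allows up to 3 reads, a limit that covers counting error only, so these names do not show a difference in presence.

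Whether the diet difference in mitochondria differed from that in whole liver was tested as an interaction over all 8 libraries, with the spread of the 2 pools assumed to be that of the mitochondrial libraries. limma called 0 of 391 (0%), with 5 (1.28%) at an unadjusted p under 0.05, and edgeR called 0, with 13 at an unadjusted p under 0.05. miR-802-5p was at 15.6 RPM in the AL pool and 470 RPM in the CR pool, a 30.1-fold ratio without replicates. The mitochondrial difference minus that of the pools was -1.85 on the log2 scale (95% interval -4.06 to 0.36). The rise of miR-802-5p in mitochondria was therefore not shown to differ from that in whole liver.

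miR-199a-3p was at 1288 RPM in the AL pool and 1089 RPM in the CR pool, a 1.18-fold lower level, beside 3.11-fold in mitochondria. The difference of the log2 fold changes was -1.40 (95% interval -2.72 to -0.07, limma adjusted p = 0.998) and did not pass. miR-146a-5p was at 630 and 390 RPM in the pools, below every mitochondrial library. The other 4 with the smallest p were novel_368 (-3.27), miR-881-3p (2.59), miR-150-5p (2.14) and miR-5126 (2.29), each with limma adjusted p = 0.998. For let-7b-5p and let-7c-5p the pools were at 2081 and 2125 RPM and at 4993 and 5266 RPM, AL first.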

How the data were processed

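The deposited tables give 1 RPM value per miRNA name and library. The authors' RPM columns are headed tpm, sum to 1000000 in each library, are not scaled for length, and leave out names with no read, which were set to 0. Reads were mapped with Bowtie to the mouse build mm9, per the submitters' processing notes. Versions, mismatches, the assignment of names and the treatment of reads with several matches are not given in the sources used here. In 7 pairs of names with 20 or more reads, such as miR-1a-3p and miR-1b-5p or miR-126a-5p and miR-126b-3p, the reads were identical in all 6 mitochondrial libraries, so some reads are listed under 2 names. Dividing the deposited RPM by the value of a single read gave whole numbers for 100% of entries (within 0.01 read), and these are the reads per name.

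The diets were compared in the 6 mitochondrial libraries with limma-trend (limma 3.58.1, R 4.3.3) on log2(RPM + 1), two-sided. The 391 miRNAs that reached 1 RPM in 3 or more of them were tested, and Benjamini-Hochberg adjusted p under 0.05 was called. These miRNAs held almost all reads (99.99%), and fold changes of rare miRNAs are understated by the added 1 RPM. Arm balance was tested likewise on log2((5p + 1)/(3p + 1)), and the interaction of diet and fraction over all 8 libraries. Alternatives used edgeR 4.0.16, DESeq2 1.42.0 and limma-voom on the recovered reads, other scalings, pseudocounts and filters, the replicate number as a block, and each library left out. Leaving out libraries under DESeq2 size factors and under edgeR was chosen after seeing the data. The limma step was tested on simulated reads for 398 names: 96.0% of those raised by 2 and 44.0% of those raised by 1 on the log2 scale were recovered, as were 90.9% and 55.3% of those lowered as much, with 1.93% of unchanged names called. The simulated dispersion was 0.05, and the measured spread of miRNAs under 100 RPM was larger (median coefficient of variation of 30.1% to 62.4%). In the CR libraries it was also larger at 10000 RPM or more (39.5%) and at 100 to 1000 RPM (30.6%). These shares therefore do not describe rare miRNAs and may not describe abundant ones.

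The miRNAs and lists were chosen with earlier results of these data known, so lists are described by counts and medians without a test. Named were miRNAs past the threshold, others in order of p to a total of 30, the 10 most abundant, other arms, up to 5 read in 1 diet only, the 10 most abundant without overlap, the 5 hairpins and 5 interactions with the smallest p, and up to 4 members of a list by p. The last were narrowed to members at an unadjusted p under 0.05 after the values were seen. The miRNAs named to describe CR replicate 2, cell types, seed families and miR-21a-3p were also chosen after their values were seen. Sequences and positions come from RefSeq for GRCm38.p6, matched by name for 692 of 862 names, with host genes from GENCODE M21, and not from the authors' mm9 alignment. In the mitochondrial libraries 3 reads were worth 1.90 to 2.80 RPM, and intervals cover these libraries only. Plots were made with matplotlib 3.10.9 in Python 3.11.15.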

Additional observations from a re-analysis of the deposited data

How the results depend on the processing

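The 2 calls became 10 with no filter, 8 with a filter of 10 RPM, 5 with DESeq2 size factors, TMM factors, DESeq2 or limma-voom, 6 with upper quartile factors, 4 with library totals without miR-122, 7 with edgeR and 1, miR-199a-3p, with robust moderation, where miR-802-5p had limma adjusted p = 0.0597. Leaving out 1 library gave between 0 and 10 calls over the 3 tools or scalings tried. For arm balance it gave 0 to 1. Interaction calls stayed at 0 in every alternative run. miR-802-5p was called in 23 of 31 alternatives (log2 fold change 2.39 to 3.87) and miR-199a-3p in 20 (-1.78 to -1.29), with no change of sign.

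With the replicate number as a block there were 3 calls, miR-146a-5p among them, and 0 for arm balance. Same-numbered AL and CR libraries correlated in their deviations at 0.364, 0.0752 and 0.107, and AL replicate 2 correlated best with CR replicate 3 (0.215), so the numbers were not taken to pair the libraries. The interaction could not be fitted with a block, since each pool is 1 library.

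The sign of 11 named miRNAs changed. The ranges given here are over all alternatives, among them omissions of 1 library under DESeq2 size factors or edgeR. The log2 fold change of let-7b-3p lay between -0.19 and 0.79, let-7i-3p between -0.26 and 0.62 and miR-101a-3p between -0.21 and 0.56. That of miR-101b-3p lay between -0.26 and 0.67, miR-122-5p between -0.18 and 0.74 and miR-148a-3p between -0.079 and 0.71. For miR-148b-5p it lay between -0.68 and 0.43, miR-20a-5p between -0.29 and 0.87 and miR-30a-5p between -0.55 and 0.48. For miR-378a-3p it lay between -0.76 and 0.21 and for miR-881-3p between -0.55 and 0.83. miR-148b-5p was also at 0.083 with edgeR, 0.13 with DESeq2 and 0.00746 with limma-voom. miR-30a-5p was at 0.17 with DESeq2 size factors, 0.14 with TMM factors, 0.069 without miR-122 in the totals, 0.21 with edgeR, 0.27 with DESeq2 and 0.12 with limma-voom. The cause was not tested. With 3 libraries per diet, the median interval for miRNAs under 10 RPM spanned a factor of 2.39 on either side. Differences of that size or larger could therefore be missed there.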

Other observations

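Each library was the highest or the lowest of the 6 for a different number of 106 miRNAs. These were the tested miRNAs with a mean of at least 100 RPM over all 8 libraries, the 2 whole-liver pools included. AL replicate 1 was highest for 35 and CR replicate 2 for 31, whereas CR replicate 3 was lowest for 43 and CR replicate 1 for 26. AL replicate 3 was highest for 13 and lowest for 4, so it was the library most often within the range of the others. The lowest counts of highest values, 7 and 4, belonged to CR replicates 1 and 3, the libraries with the largest miR-122 shares (53.3% and 58.1%).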
